A study of Mus musculus with 9 samples.

Results

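The collagen genes were measured in 9 breast tumours of mice, and they were chosen by name: every row of the count table whose symbol has the form Col, a number, the letter a and a number. The rule found 44 genes among the 49585 rows. All 44 are protein-coding genes in GENCODE, and 43 had counts high enough to be tested. Col19a1 was the exception, with between 0 and 0.293 CPM (read counts corrected for the size of each library, here also by TMM factors). By role the 44 were 11 fibrillar chains, 6 chains of the basement membrane network, 6 chains of the beaded filament, 1 anchoring fibril chain, 3 short chain network chains, 9 FACIT chains (chains that sit on the surface of fibrils), 4 transmembrane chains, 2 multiplexins and 2 others.

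Collagens are proteins of 3 chains wound into a triple helix. Fibrillar chains assemble into the long fibres that give connective tissue its strength, type IV chains form the sheet under epithelia and around vessels, and type VI chains form fine beaded filaments around cells. Most fibrillar collagen of a mammary tumour is made by fibroblasts, and much type IV collagen by endothelium and by the epithelium itself. Type VII and type XVII collagens tie basal epithelium to the layer beneath it. Types II, IX, X and XI are best known from cartilage.

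All 9 samples were spontaneous breast adenocarcinomas from mice of the same labelled genotype. It combines K14-Cre, a Cre recombinase driven by the keratin-14 promoter of basal epithelium, with Trp53wm-R172H/fl (a missense Trp53 allele over a floxed one) and with Rosa26LSL CAS9-P2A-EGFP/+ (a Cre-dependent Cas9 and green fluorescent protein at Rosa26), and the controls carried all of it. Tumours were given an adeno-associated virus on days 0, 3 and 8, either AAV-Control (3 tumours, here control 1 to 3) or AAV-∆mut-p53 (6 tumours, here ∆mut 1 to 6). They were taken when the animal met the criteria for euthanasia, so the time after treatment is not fixed by the labels, and the ages are not given there. The series title names the question as mutant p53 against mutant p53 deleted. The numbers after the group names follow the order of the samples and pair nothing. ∆mut 4 and ∆mut 5 share a number in their titles; the labels do not say that they came from 1 mouse.

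Libraries held 18581545 to 30953250 counts, and each control library was deeper than each of the others. Trp53 had 39.3 to 48.6 CPM in the controls and 13.1 to 41.5 CPM in the 6 AAV-∆mut-p53 tumours, with overlap of the groups, and the counts do not show whether the allele was cut. ∆mut 2 stood apart: its 8 skeletal muscle markers summed to 42200 CPM, against at most 406 CPM in any other tumour, and its 6 adipocyte markers summed to 258 CPM, against at most 25.8 CPM in the other AAV-∆mut-p53 tumours. Its 6 luminal epithelial markers summed to 211 CPM. They summed to 1160 to 4430 CPM in the other AAV-∆mut-p53 tumours and to 1570 to 2560 CPM in the controls. Among them, Krt19 was not lowest in ∆mut 2. Results that rest on ∆mut 2 are given with and without it. The part of muscle, fat and low epithelial signal in its collagen values was not tested. In whole tumours, fewer cells of a type and less RNA per cell cannot be told apart. Nothing in the labels says that the samples of a group are separate animals, so p-values measure the spread between these samples.

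Collagen genes took between 0.532% and 3.27% of all counts. In the controls the share was 1.20%, 1.54% and 0.672%. In ∆mut 1 to 6 it was 0.578%, 3.27%, 0.532%, 0.558%, 2.24% and 0.677%. Only ∆mut 2 and ∆mut 5 lay above all controls, and ∆mut 1, 3 and 4 lay below all of them. Counts also grow with gene length, so levels of different collagens were compared as CPM per kilobase of exon. The order of genes then depends on the annotated exon length of each. On that scale the highest mean over the 9 tumours was that of Col4a1 (381), followed by Col3a1 (194), Col4a2 (173.5), Col6a1 (169) and Col1a2 (79.2). Neighbours in this order overlapped widely from tumour to tumour. Col4a1 was the most abundant collagen by length in all 3 controls and in ∆mut 1, 4 and 5, with 18.7% to 50.6% of the collagen signal. Col6a1 held that place in ∆mut 2 (29.0%), Col18a1 in ∆mut 3 (26.8%) and Col9a3 in ∆mut 6 (12%).

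**Figure D1:**
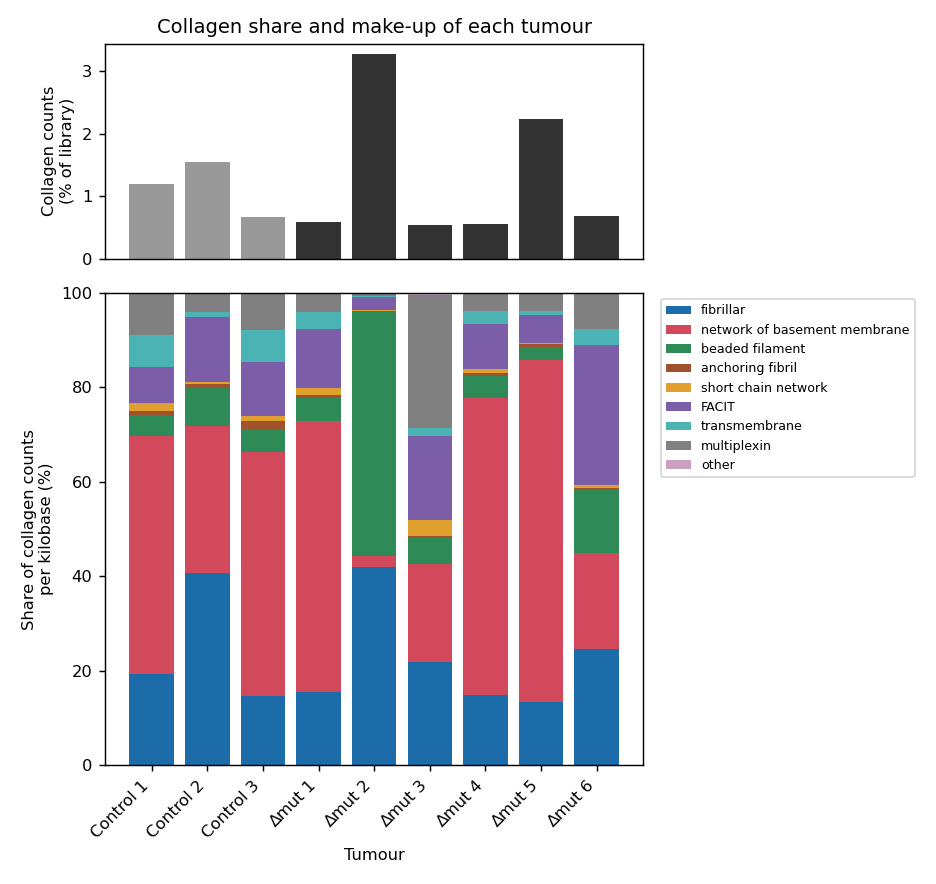
Collagen share of all counts in each tumour (upper panel, percent) and the split of the length-scaled collagen signal by role (lower panel, percent of the sum of CPM per kilobase). Columns are the 3 control and 6 AAV-∆mut-p53 (∆mut) tumours. Beaded filament chains take 51.9% in ∆mut 2 and the basement membrane network takes 72.5% in ∆mut 5.

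The make-up varied widely among the AAV-∆mut-p53 tumours. Basement membrane chains took 31% to 51.6% of the length-scaled signal in the controls and from 2.28% (∆mut 2) to 72.5% (∆mut 5) in the other group. Beaded filament chains took 51.9% in ∆mut 2 and at most 13.3% elsewhere. Multiplexins took 28.2% in ∆mut 3, and FACIT chains 29.6% in ∆mut 6. The share of the anchoring fibril chain, Col7a1 alone, did not overlap between the groups, at 0.753% to 1.54% in the controls and 0.0379% to 0.625% in the others. The shares of all other roles overlapped. In CPM Col7a1 also overlapped: ∆mut 5 had 168 CPM, within the control range. A share depends on the other chains too, and Col4a1 took 50.6% of the signal in ∆mut 5. The median SD of a tested collagen gene over the 9 tumours was 1.49 on the log2(CPM + 1) scale, against 0.53 over all tested genes. Without ∆mut 2 these medians were 1.15 and 0.48. A single tumour held more than 50% of the summed CPM for 15 members, 34.9% of those tested, against 6.84% of all tested genes. That tumour was ∆mut 2 for 7 of them, ∆mut 3 for 3, control 2 for 2 and ∆mut 1, ∆mut 5 and ∆mut 6 for 1 each. ∆mut 2 had the highest value of 15 members (34.9%), against 19.9% of all tested genes.

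**Figure D2:**
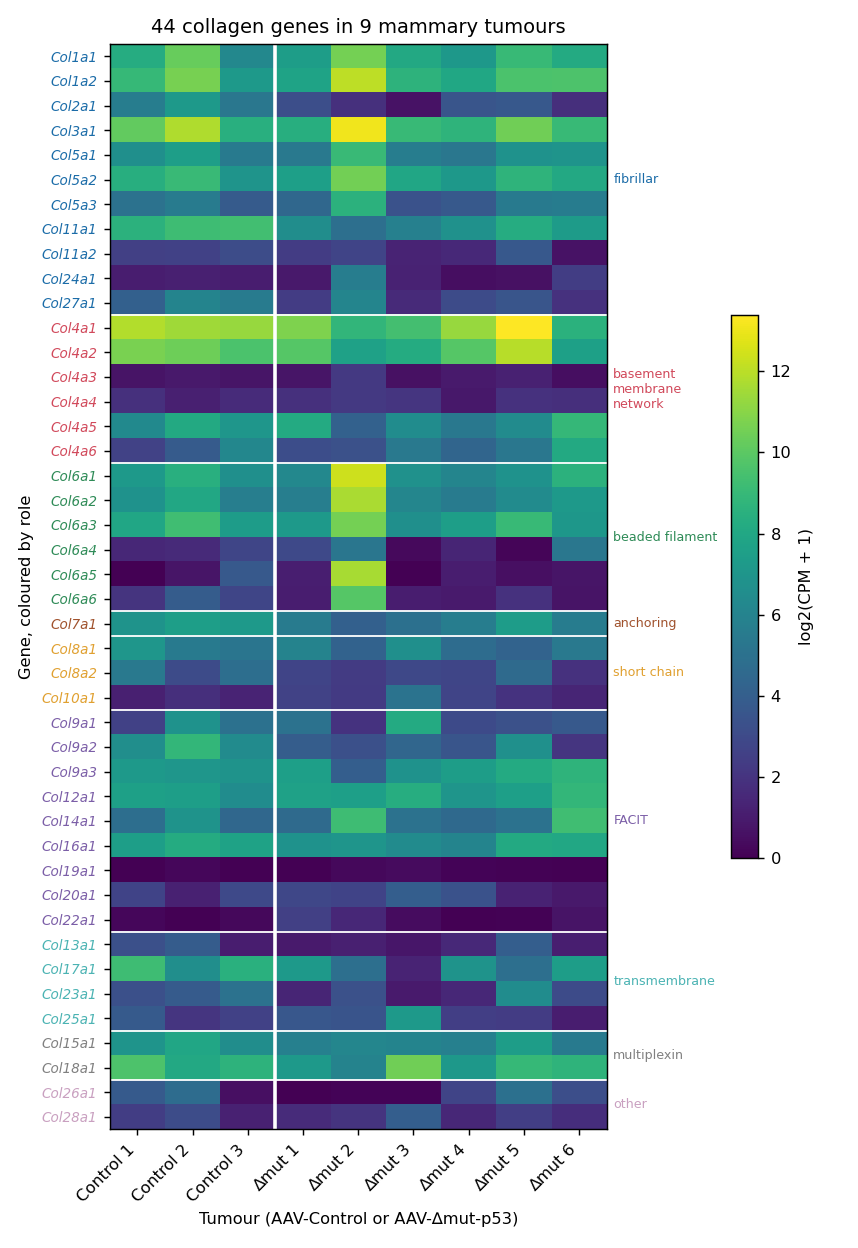
Level of each collagen gene in each of the 9 tumours, as log2(CPM + 1), with genes grouped by role. Brighter cells are higher. Most type VI chains (not Col6a4, which is highest in ∆mut 6) and most fibrillar chains are brightest in ∆mut 2, and the type IV chains Col4a1 and Col4a2 in ∆mut 5.

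The comparison of AAV-∆mut-p53 with AAV-Control gave no collagen gene past a false discovery rate (FDR) of 0.05. In edgeR's quasi-likelihood test 0 of the 43 tested members passed, where 0.0% of the 19606 genes tested did, and the smallest FDR of any gene was 0.677. At an unadjusted p under 0.05 there were 6 members (14.0%), against 7.07% of all genes, and 3 when control 1 was left out. Of these, Col2a1, Col11a1, Col9a2, Col8a2 and Col7a1 were lower in AAV-∆mut-p53 tumours (3.26% of all genes were called lower in this way) and Col10a1 was higher (3.82%). DESeq2 called 1 member at the same FDR, Col2a1 (FDR = 0.00318), where it called 0.536% of all genes. It gave 7 members an unadjusted p under 0.05 (9.8% of all genes) and gave no p for 9. Limma voom with sample weights called 0 members (0.0% of all genes), with 9 at an unadjusted p under 0.05 (10.4% of all genes).

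Over the 43 members, 26 had a higher and 17 a lower fitted level in AAV-∆mut-p53 tumours, with a median log2 fold change of 0.28. All tested genes had a median of 0.09. Without ∆mut 2 the split was 18 higher and 24 lower among 42 tested, with a median of -0.45, while that of all genes was 0.05. The sign of the collagen median thus depended on ∆mut 2. The groups did not overlap for 2 members, Col2a1 and Col11a1, both lower (1.59% of all genes were lower and 1.47% higher without overlap, 3.06% in all). At least 5 of the 6 AAV-∆mut-p53 tumours lay below every control for 8 members, Col2a1, Col6a6, Col7a1, Col8a2, Col9a2, Col11a1, Col15a1 and Col27a1 (6.71% of all genes). The opposite held for 1 member, Col10a1 (6.29% of all genes).

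**Figure D3:**
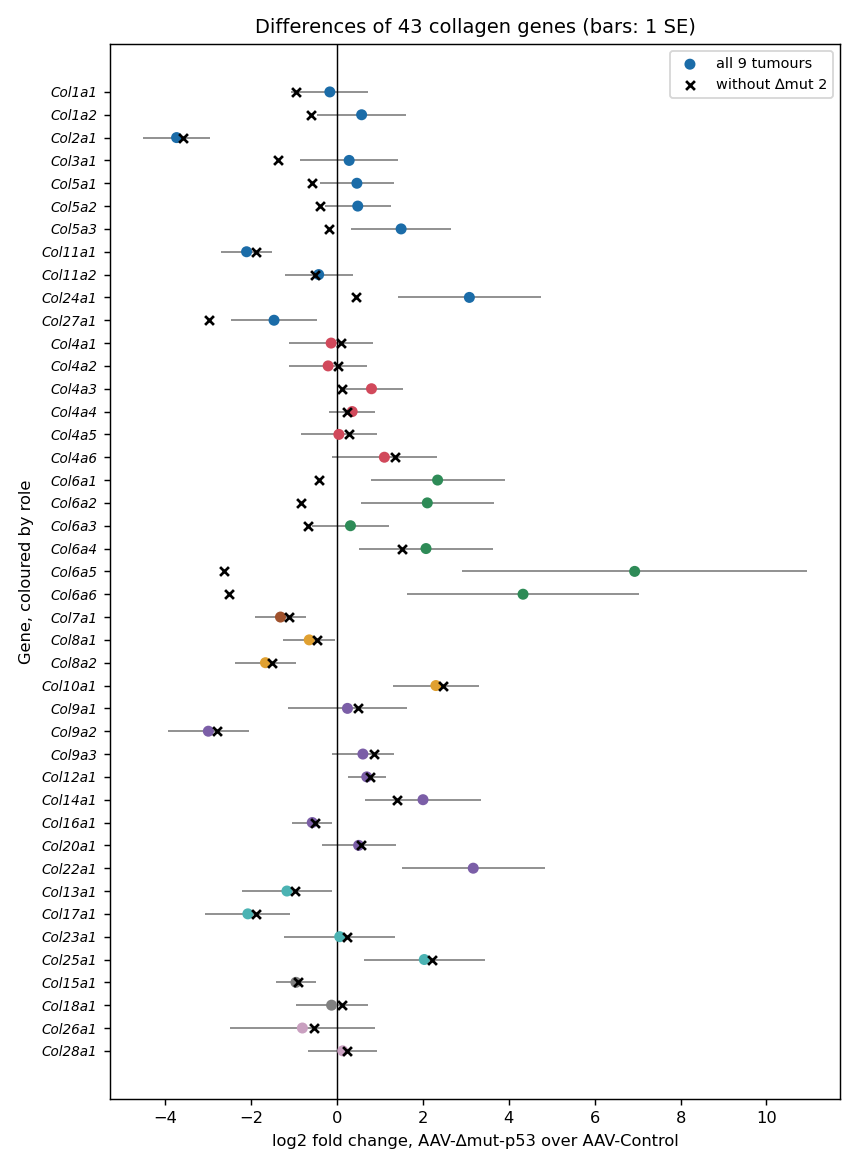
Fitted log2 fold change of each tested collagen gene, AAV-∆mut-p53 over AAV-Control, with bars of 1 SE from edgeR, ordered by role. Black crosses give the fit without ∆mut 2 (none for Col22a1, which then had too few counts); the type VI chains cross from above 0 to below it, except Col6a4, and Col2a1 and Col11a1 stay far below 0.

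Among the fibrillar chains the clearest separation was that of Col2a1, the single chain of the main collagen of cartilage. It had 49.7, 153 and 38.3 CPM in the controls. The values of ∆mut 1 to 6 were 8.14, 2.68, 0.586, 10.4, 11.7 and 2.53 CPM. Every control lay above every AAV-∆mut-p53 tumour, with means of 80.3 ± 63.1 (SD, n = 3) and 6.02 ± 4.68 CPM (SD, n = 6). The log2 fold change was -3.74 (SE 0.78, edgeR FDR = 0.677), and leaving out 1 tumour at a time gave -4.07 to -2.86. The cartilage markers went different ways beside it. Of the 8, Matn1 had 0 counts in every tumour, and of the 6 tested 4 were higher and 2 lower in AAV-∆mut-p53 tumours, none past the FDR threshold. Snorc had 21.5 to 43.9 CPM in the controls and lay below all of them in 5 of the 6, with 73.5 CPM in ∆mut 1. Hapln1 was highest in control 2 (8.91 CPM), as Col2a1 was. Acan, the large proteoglycan of cartilage, had 0.500 to 10.7 CPM in the controls and 0.147 to 68.4 CPM in the other group. Sox9, the regulator of cartilage genes, had 5.54 to 45.1 and 6.28 to 259 CPM. The 8 markers summed to 68.3 to 104 CPM in the controls and to 13.5 to 771 CPM in the others. Cnmd alone had 602 CPM in ∆mut 6, the tumour with the highest sum. The part of the 8 markers in the Col2a1 values was not tested.

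Col11a1, a minor fibril chain that joins type II and type V molecules, was the other member without overlap. Its 3 controls had 392, 600 and 648 CPM. ∆mut 1 to 6 had 94.8, 29.1, 55.0, 109, 313 and 161 CPM. ∆mut 5 came closest to the controls and ∆mut 2 was lowest, with group means of 547 ± 136 (SD, n = 3) and 127 ± 102 CPM (SD, n = 6). The log2 fold change was -2.11 (SE 0.59, edgeR FDR = 0.677). Its partner Col11a2 was rare, at 4.81 to 7.53 CPM in the controls and 0.571 to 11.9 CPM in the others, with overlap.

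**Figure D4:**
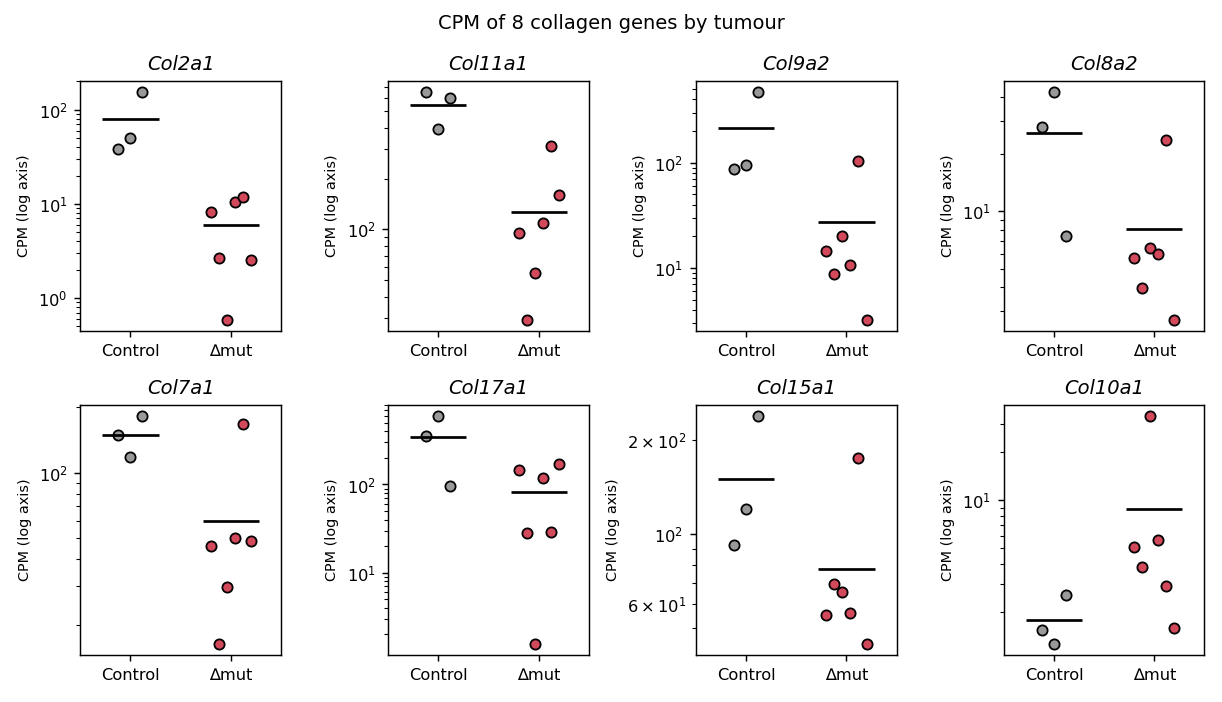
CPM in each tumour, on a log axis, for 8 collagen genes, with a line at each group's mean. Col2a1 and Col11a1 separate the 3 controls from the 6 AAV-∆mut-p53 tumours; the other 6 genes overlap.

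The main fibre chains did not separate the groups. Col1a1, a chain of type I collagen, had 314.5, 1250 and 73.8 CPM in the controls. Among ∆mut 1 to 6 it had 175, 1510, 269, 142, 525 and 289.5 CPM. The controls alone spanned nearly the whole range, and the log2 fold change was -0.17 (SE 0.90, edgeR FDR = 0.969). Col1a2, the other type I chain, ran from 143 to 1585 CPM in the controls and from 214 to 4196 CPM in the others. Col3a1, which forms finer fibres together with type I, ran from 347 to 3515 CPM in the controls and from 341 to 8890 CPM in the others, with log2 fold changes of 0.57 (SE 1.03) for Col1a2 and 0.28 (SE 1.14) for Col3a1. In each case ∆mut 2 was the highest tumour and control 2 the second. All 10 fibroblast markers had counts, and their sum was highest in ∆mut 2: 337 to 1350 CPM in the controls, 2880 CPM in ∆mut 2 and 198 to 623 CPM in the other AAV-∆mut-p53 tumours. Pdgfrb, Lum and Fbln1 were not highest there, at 55.1, 141 and 34.9 CPM in ∆mut 2 against 161 CPM (∆mut 5), 205 CPM and 263 CPM (both control 2). Their part in the fibrillar values was not tested.

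The remaining fibrillar chains followed ∆mut 2 as well. Col5a1, Col5a2 and Col5a3, chains of the type V collagen that starts fibrils, had 535, 1493 and 383 CPM in ∆mut 2. No other tumour exceeded 180, 530 and 48.9 CPM for these chains. Col24a1 had 50.5 CPM in ∆mut 2 and at most 4.48 CPM elsewhere. Col27a1, a chain of thin fibrils in cartilage, had 16.5, 65.4 and 46.6 CPM in the controls and 2.05 to 10.6 CPM in 5 of the AAV-∆mut-p53 tumours, but 66.1 CPM in ∆mut 2. Of the 11 fibrillar chains 6 were higher and 5 lower, and the median log2 fold change was 0.28. Without ∆mut 2, 1 was higher and 10 were lower, with a median of -0.62. None of the 11 passed the FDR threshold in either fit.

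The 6 chains of the basement membrane network lie in 3 pairs, head to head on their chromosomes. Col4a1 and Col4a2 overlap by 22 bases on chromosome 8 in GENCODE. Col4a4 and Col4a3 lie 71 bases apart on chromosome 1, and Col4a6 and Col4a5 lie 1308 bases apart on chromosome X. The windows around gene starts, 250 bases before to 50 after, are shown for the pair of most abundant chains, which share 78 bases and whose levels vary together from tumour to tumour, and for 3 fibrillar chains as a contrast. They come from RefSeq, build GRCm38.p6, each written 5′ to 3′ on its gene's strand, with capitals for the motif CCAAT, for the motif TATAAA and for the motif GGGCGG, on either strand.
Col4a1, chr8:11312777-11313076, minus strand: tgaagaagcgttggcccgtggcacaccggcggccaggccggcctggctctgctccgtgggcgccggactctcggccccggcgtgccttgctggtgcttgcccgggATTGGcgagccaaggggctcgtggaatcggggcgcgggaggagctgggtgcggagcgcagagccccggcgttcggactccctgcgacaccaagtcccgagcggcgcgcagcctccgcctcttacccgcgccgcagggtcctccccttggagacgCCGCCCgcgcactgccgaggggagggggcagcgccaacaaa
Col4a2, chr8:11312555-11312854, plus strand: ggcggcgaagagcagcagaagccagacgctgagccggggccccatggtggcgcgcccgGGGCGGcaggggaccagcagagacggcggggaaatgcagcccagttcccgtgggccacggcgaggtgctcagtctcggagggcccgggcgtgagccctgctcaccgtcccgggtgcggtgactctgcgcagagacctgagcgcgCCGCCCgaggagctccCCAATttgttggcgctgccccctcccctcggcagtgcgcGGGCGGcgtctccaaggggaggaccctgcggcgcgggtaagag
Col1a2, chr6:4505368-4505667, plus strand: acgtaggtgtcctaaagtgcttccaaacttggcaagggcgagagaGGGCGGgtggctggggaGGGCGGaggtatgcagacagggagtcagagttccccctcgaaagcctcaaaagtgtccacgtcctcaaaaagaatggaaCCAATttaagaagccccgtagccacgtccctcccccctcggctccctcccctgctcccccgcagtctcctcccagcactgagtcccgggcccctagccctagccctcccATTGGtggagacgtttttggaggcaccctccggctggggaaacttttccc
Col3a1, chr1:45311288-45311587, plus strand: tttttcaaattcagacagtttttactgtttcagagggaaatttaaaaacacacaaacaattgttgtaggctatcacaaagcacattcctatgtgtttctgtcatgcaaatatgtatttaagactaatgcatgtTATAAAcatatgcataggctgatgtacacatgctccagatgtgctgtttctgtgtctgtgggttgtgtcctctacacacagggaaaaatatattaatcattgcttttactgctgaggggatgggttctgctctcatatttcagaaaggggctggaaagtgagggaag
Col11a1, chr3:114030290-114030589, plus strand: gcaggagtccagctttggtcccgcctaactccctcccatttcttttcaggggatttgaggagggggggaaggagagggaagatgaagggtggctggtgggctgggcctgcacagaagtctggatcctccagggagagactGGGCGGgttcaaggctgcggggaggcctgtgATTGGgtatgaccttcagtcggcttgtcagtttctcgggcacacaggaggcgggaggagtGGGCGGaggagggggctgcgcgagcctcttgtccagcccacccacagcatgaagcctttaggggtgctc
RefSeq gave such windows for 35 of the 44 members, 38 windows in all. On either strand, CCAAT was in 34.2% of them and in 37.4% of all 32851 windows. The letters TATAAA were in 13.2% and 13.6%. The letters GGGCGG were in 60.5% and 35.7%. The reverse complement of CCAAT can overlap GGGCGG by 2 letters, and a match is a description of the sequence, not a site.

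Col4a1 had 3715, 2845 and 2519 CPM in the controls. In ∆mut 1 to 6 it had 1807, 456, 674, 2543, 10690 and 369 CPM. ∆mut 5 was several-fold above every control and 4 of the 6 were below all of them, so that the means were close and the log2 fold change was -0.14 (SE 0.97, edgeR FDR = 0.978). Without 1 tumour at a time the value ran from -1.36 to 0.1. Col4a2, its partner in the usual type IV molecule, followed it: 1657, 1362 and 771 CPM in the controls, and 938, 199, 306, 925.5, 3981 and 193.5 CPM in ∆mut 1 to 6. Its log2 fold change was -0.21 (SE 0.90).

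The high type IV values of ∆mut 5 were set beside the genes around them. Between 9 and 15 Mb of chromosome 8 (GRCm38), 30 other protein-coding genes had a mean of at least 5 CPM. In ∆mut 5, 25 of the 30 were over 2 times the median of the other tumours, with a median ratio of 2.965. How many of all tested genes passed this cut in ∆mut 5 was not counted, so the count has no background. Col4a1 had a ratio of 4.94 and Col4a2 of 4.69. Cul4a, a ubiquitin ligase subunit in this stretch, had 1170, 1620 and 595 CPM in ∆mut 1, ∆mut 4 and ∆mut 5. Col4a1 had 1807, 2543 and 10690 CPM in the same tumours. Of the 30 neighbours 4 were highest in ∆mut 5 (Lig4, Abhd13, Irs2 and Erich1), 8 in control 3, 8 in ∆mut 1 and 9 in ∆mut 4. The part of the region in the type IV values was not tested.

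The other type IV chains were lower in level and did not follow Col4a1. Col4a5, a chain of specialised basement membranes, had 81.0, 280 and 129 CPM in the controls and 293, 16.5, 88.7, 39.7, 88.0 and 481.5 CPM in ∆mut 1 to 6, a log2 fold change of 0.04 (SE 0.89). Col4a6 had 277 CPM in ∆mut 6 and at most 73.1 CPM elsewhere. ∆mut 6 was the highest tumour for both chains of this pair. Col4a3 and Col4a4, the chains of the kidney filter, stayed between 0.407 and 3.74 CPM. Without ∆mut 2 all 6 type IV chains had a log2 fold change above 0, with a median of 0.18, and none passed the FDR threshold.

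Type VI collagen was dominated by ∆mut 2. Col6a1 had 148, 350 and 102 CPM in the controls. Its levels in ∆mut 1 to 6 were 74.7, 5322, 109, 66.7, 112 and 386 CPM. Col6a2 had 113, 264 and 52.8 CPM in the controls and 51.4, 3275, 69.1, 46.8, 88.2 and 145.5 CPM in ∆mut 1 to 6. Both chains were far higher in ∆mut 2 than in any other tumour, and the rest of the AAV-∆mut-p53 tumours overlapped the controls. Col6a3, the third chain of the usual molecule, had 244, 631 and 169 CPM in the controls and 143.5, 1517, 99.8, 181, 518 and 134 CPM in the others. The alternative chains showed the widest gap. Col6a5 had 3198 CPM in ∆mut 2 and 0 to 12.4 CPM elsewhere. Col6a6 had 915 CPM in ∆mut 2 and 0.611 to 13.7 CPM elsewhere. Col6a4 had 36.8 CPM in ∆mut 2 and 37.9 CPM in ∆mut 6, and at most 6.65 CPM in the other 7 tumours.

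All 6 beaded filament chains had a positive log2 fold change, with a median of 2.22 and a range from 0.31 (Col6a3, SE 0.89) to 6.93 (Col6a5, SE 4.02). Without ∆mut 2, 1 was positive and 5 were negative, with a median of -0.76. The direction of the group thus rested on 1 tumour, the one with 42200 CPM of skeletal muscle markers. Voom, which gives samples unequal weights, had a negative value for 5 of the 6, all but Col6a5. None of the 6 passed the FDR threshold with or without ∆mut 2.

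Chains that anchor epithelium had lower means in AAV-∆mut-p53 tumours. Col7a1, which forms the anchoring fibrils below the basement membrane, had 117, 182 and 148 CPM in the controls. In ∆mut 1 to 6 it had 45.9, 16.4, 29.7, 49.8, 168 and 48.3 CPM. ∆mut 5 lay among the controls and the other 5 lay below all of them. The log2 fold change was -1.32 (SE 0.59, edgeR FDR = 0.677). Col17a1, a transmembrane chain of hemidesmosomes, had 597, 95.9 and 355 CPM in the controls and 148, 28.1, 1.56, 118, 28.6 and 171 CPM in the others. Control 2 lay below 3 of the AAV-∆mut-p53 tumours, and the log2 fold change was -2.08 (SE 0.99, edgeR FDR = 0.677).

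The basal epithelial markers went different ways beside these chains. All 5 had counts, and they summed to 586 to 933 CPM in the controls and to 38.1 to 1240 CPM in the others. Trp63, the regulator of basal epithelium, had 309, 600 and 349 CPM in the controls and 3.47 to 211 CPM in AAV-∆mut-p53 tumours, without overlap. Of all genes 1.59% were lower in this way. Krt5 had 181 to 393 CPM in the controls and 1.76 to 206.5 CPM in the others. Krt14, whose promoter drives the Cre of these mice, had 3.90 to 52.9 CPM in the controls and 8.92 to 860 CPM in the others. ∆mut 3 had both the lowest Col17a1 and the lowest Trp63 and Krt5. The part of basal cells in the values of Col7a1 and Col17a1 was not tested.

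The other transmembrane chains were each high in few tumours. Col13a1, found at cell junctions, had 8.71, 14.1 and 1.11 CPM in the controls, 15.2 CPM in ∆mut 5 and at most 1.90 CPM in the other 5. Col23a1 had 89.75 CPM in ∆mut 5 and at most 31.6 CPM elsewhere. Col25a1 had 143 CPM in ∆mut 3 and at most 13.1 CPM elsewhere. Their log2 fold changes were -1.17 (SE 1.05), 0.06 (SE 1.29) and 2.03 (SE 1.41).

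Of the short chain network collagens, Col8a2 had 42.3, 7.40 and 27.7 CPM in the controls and 5.71, 3.97, 6.45, 5.97, 23.8 and 2.69 CPM in ∆mut 1 to 6. 5 of the latter lay below every control. Its log2 fold change was -1.67 (SE 0.70, edgeR FDR = 0.677). Col8a1, which joins Col8a2 in the matrix of vessel walls, overlapped between the groups, at 36.1 to 130 CPM and 17.7 to 99.7 CPM, with a log2 fold change of -0.65 (SE 0.61). Col10a1, the collagen of the growth plate, was the single member with a higher level in at least 5 AAV-∆mut-p53 tumours. It had 1.27, 2.54 and 1.55 CPM in the controls and 5.13, 3.84, 33.7, 5.64, 2.92 and 1.59 CPM in ∆mut 1 to 6. The log2 fold change was 2.30 (SE 1.0, edgeR FDR = 0.677). This gene overlaps Nt5dc1 on the opposite strand, whose counts were 309% of those of Col10a1. The libraries keep strand per the labels' protocols, but whether the counting used strand is unknown here, so its values are uncertain.

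The FACIT chains gave no common direction: 6 of the 8 tested were higher and 2 lower, and the median log2 fold change was 0.55. Col9a2, a chain of the type IX molecule of cartilage fibrils, had the smallest p of them. It had 95.9, 467 and 86.5 CPM in the controls and 14.5, 8.78, 20.3, 10.7, 105 and 3.22 CPM in ∆mut 1 to 6. Only ∆mut 5 reached the controls, and the log2 fold change was -3.00 (SE 0.95, edgeR FDR = 0.677). The other type IX chains did not follow it. Col9a3 had 117 to 150.5 CPM in the controls and 14.9 to 422 CPM in the others, with 4 of the 6 above every control. Col9a1 had 286 CPM in ∆mut 3 and at most 112 CPM elsewhere.

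Col12a1, which decorates type I fibrils under tension, had 192, 178 and 91.0 CPM in the controls and 198, 188, 327, 127, 186 and 459 CPM in the others, a log2 fold change of 0.69 (SE 0.44). Col14a1, its relative, was high in ∆mut 2 (589 CPM) and ∆mut 6 (616 CPM), and at most 116 CPM in the other 7 tumours. Col16a1 had 180.5 to 303 CPM in the controls and 64.9 to 275.5 CPM in the others, a log2 fold change of -0.58 (SE 0.47). Col20a1, whose counts are uncertain because another gene model overlaps it on the same strand, stayed between 0.896 and 14.8 CPM. Col22a1 had at most 0.238 CPM in the controls and 4.72 CPM in ∆mut 1.

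The multiplexins are basement membrane collagens of vessels and epithelia that carry sugar chains. Col15a1 had 120, 239 and 92.7 CPM in the controls. In ∆mut 1 to 6 it had 55.3, 69.5, 65.4, 56.0, 175 and 44.7 CPM. 5 of the 6 lay below every control, and the log2 fold change was -0.96 (SE 0.46, edgeR FDR = 0.677). Of the 8 endothelial markers 7 had a lower fitted level, 5 at an unadjusted p under 0.05 (3.26% of all genes) and none past the FDR threshold by edgeR, with a median log2 fold change of -0.95. They summed to 248 to 564 CPM in the controls and 126 to 366 CPM in the others. Their part in the Col15a1 values was not tested. Col18a1, the source of endostatin, had 792, 270 and 407 CPM in the controls, 1411 CPM in ∆mut 3 and 62.8 to 503 CPM in the other 5, a log2 fold change of -0.13 (SE 0.84). Of the 2 remaining members, Col26a1 ran from 0 to 29.6 CPM and Col28a1 from 1.31 to 15.1 CPM, and both overlapped between the groups.

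Chains that belong to 1 molecule were then compared within each library, as a ratio of CPM per kilobase that does not depend on library scaling. The size of such a ratio rests on the exon lengths used, here 6.563 kb for Col1a1 and 12.43 kb for Col1a2. Type I protein has 2 chains from Col1a1 for each from Col1a2, which an RNA ratio does not measure. The RNA ratio Col1a1/Col1a2 was 1.22 ± 0.258 (SD, n = 3) in the controls and 1.10 ± 0.352 (SD, n = 6) in AAV-∆mut-p53 tumours. It was lowest in ∆mut 2 (0.681) and ∆mut 6 (0.684). Col4a1/Col4a2 stayed within 1.69 to 2.9 and Col6a1/Col6a2 within 2.42 to 5.04, although the chains themselves varied far more. Col6a3/Col6a1 was 0.624 ± 0.0314 (SD, n = 3) in the controls and ran from 0.104 (∆mut 2) and 0.127 (∆mut 6) to 1.69 (∆mut 5) in the others. Col3a1/Col1a1 ran from 1.2 to 3.94 and Col5a1/Col5a2 from 0.231 to 0.505. None of the 6 ratios differed between the groups in a 2-sided exact permutation test over the 84 assignments of tumours. The raw p ranged from 0.298 to 0.714 and the adjusted p from 0.686 to 0.714, where 0.0119 is the smallest raw p this design allows.

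**Figure D5:**
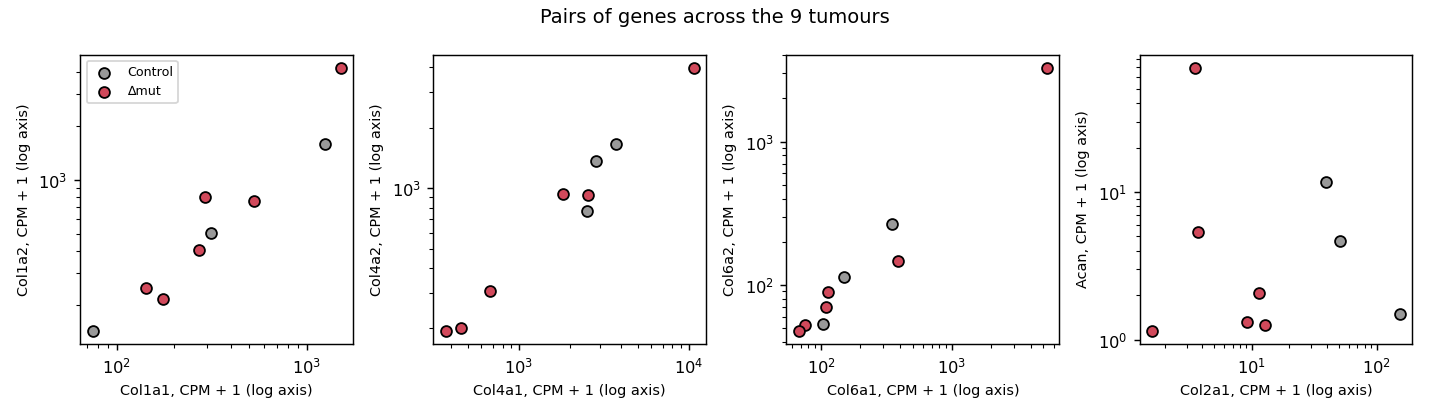
CPM + 1 of paired genes in the 9 tumours on log axes, 1 panel a pair, with controls and AAV-∆mut-p53 tumours marked apart. Col1a1 with Col1a2, Col4a1 with Col4a2 and Col6a1 with Col6a2 lie along a line; Col2a1 and Acan do not.

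Across the 9 tumours 12 relations were computed on log2(CPM + 1), with exact p-values over all 362880 orders. The orders ran over both groups together, so a difference between the groups enters r, rho and p. Partner chains varied together. Pearson's r of Col4a1 and Col4a2 was 0.99 (exact permutation p = 5.24e-05, adjusted p = 0.000207) and Spearman's rho was 0.95 (exact permutation p = 0.000353, adjusted p = 0.00212). For Col6a1 and Col6a2 r was 0.99 (exact permutation p = 6.89e-05, adjusted p = 0.000207) and rho 0.98 (exact permutation p = 4.96e-05, adjusted p = 0.000595). For Col1a1 and Col1a2 r was 0.96 (exact permutation p = 3.86e-05, adjusted p = 0.000207) and rho 0.93 (exact permutation p = 0.00075, adjusted p = 0.00225). Without the 2 tumours farthest from the median of the first gene, r was 0.97, 0.97 and 0.92 in these pairs. Col1a1 and Col3a1 had r of 0.94 (exact permutation p = 2.2e-05, adjusted p = 0.000207) and rho of 0.93 (exact permutation p = 0.00075, adjusted p = 0.00225), and r of 0.83 without control 2 and ∆mut 2 (exact permutation p = 0.0177, adjusted p = 0.053).

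Relations with single genes of the cells that usually make a chain had smaller r. Col15a1 and Pecam1, an endothelial adhesion molecule, had r of 0.68 (exact permutation p = 0.0482, adjusted p = 0.116) and rho of 0.78 (exact permutation p = 0.0172, adjusted p = 0.0413). Without control 2 and ∆mut 5 their r was 0.76 (exact permutation p = 0.0482, adjusted p = 0.0964). Col4a1 and Pecam1 had r of 0.29 (exact permutation p = 0.452, adjusted p = 0.679), rho of 0.42 (exact permutation p = 0.27, adjusted p = 0.404) and r of 0.57 without ∆mut 2 and ∆mut 6. Col1a1 and Pdgfrb, a receptor of fibroblasts and pericytes, had r of 0.51 (exact permutation p = 0.16, adjusted p = 0.274), rho of 0.67 (exact permutation p = 0.0589, adjusted p = 0.118) and r of 0.76 without control 2 and ∆mut 2 (exact permutation p = 0.045, adjusted p = 0.0964). With the summed fibroblast markers in place of Pdgfrb, r was 0.83 (exact permutation p = 0.00624, adjusted p = 0.0212), rho 0.82 (exact permutation p = 0.0108, adjusted p = 0.0305) and r without the same tumours 0.51 (exact permutation p = 0.247, adjusted p = 0.419). This relation was one of 5 chosen after the values were seen, and their p-values were adjusted over 17. Col1a1 and Serpinh1, the collagen chaperone, had r of 0.61 (exact permutation p = 0.0782, adjusted p = 0.156) and rho of 0.45 (exact permutation p = 0.23, adjusted p = 0.394). That r was -0.15 without control 2 and ∆mut 2, so it rested on those tumours.

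The last 4 relations had r from -0.13 to 0.25. Col17a1 with Krt14 had r of 0.25 (exact permutation p = 0.535, adjusted p = 0.714), rho of 0.28 (exact permutation p = 0.463, adjusted p = 0.592) and r of 0.35 without control 1 and ∆mut 3. Col7a1 with Krt14 had r of -0.08 (exact permutation p = 0.822, adjusted p = 0.897), rho of -0.13 (exact permutation p = 0.744, adjusted p = 0.811) and r of 0.15 without control 2 and ∆mut 5. These depended on the basal marker, as the other 4 relations chosen after the values were seen show. Col7a1 with Trp63 had r of 0.77 (exact permutation p = 0.00884, adjusted p = 0.025), rho of 0.92 (exact permutation p = 0.00131, adjusted p = 0.00446) and r of 0.73 without control 2 and ∆mut 5 (exact permutation p = 0.0621, adjusted p = 0.151). Col17a1 with Trp63 had r of 0.80 (exact permutation p = 0.0161, adjusted p = 0.0391) and rho of 0.52 (exact permutation p = 0.162, adjusted p = 0.25), but r of 0.35 without control 1 and ∆mut 3 (exact permutation p = 0.436, adjusted p = 0.632), so it rested on those tumours. With Krt5, r was 0.69 for Col7a1 (exact permutation p = 0.0439, adjusted p = 0.0911), rho was 0.70 (exact permutation p = 0.0433, adjusted p = 0.0919) and r without the same 2 tumours was 0.64. For Col17a1 and Krt5 r was 0.58 (exact permutation p = 0.1, adjusted p = 0.155), rho 0.58 (exact permutation p = 0.108, adjusted p = 0.184) and r without the same 2 tumours 0.04. Col2a1 with Acan had r of -0.13 (exact permutation p = 0.747, adjusted p = 0.896), rho of 0.07 (exact permutation p = 0.88, adjusted p = 0.88) and r of -0.23 without control 2 and ∆mut 3. Col10a1 with Mmp13, a collagenase of the growth plate, had r of 0.03 (exact permutation p = 0.938, adjusted p = 0.938), rho of 0.27 (exact permutation p = 0.493, adjusted p = 0.592) and r of -0.12 without control 1 and ∆mut 3.

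The genes that make, bind and degrade collagen were read from 7 lists with 107 genes, of which 106 were tested. By edgeR 0 of them passed the FDR threshold, 4 were higher and 5 lower at an unadjusted p under 0.05 (3.82% and 3.26% of all genes), and DESeq2 called Pcolce2 (FDR = 0.00473) and Tnc (FDR = 0.0406) among the genes named here. Without control 1 or control 2 the count at an unadjusted p under 0.05 was 5, and without ∆mut 2 or ∆mut 5 it was 16. The count over all genes moved too, from 874 (without control 2) to 2009 with 1 tumour left out. Without ∆mut 2 it was 1687 of 19200 genes. Of the 21 genes of chain modification and folding 9 were higher and 12 lower, and the median log2 fold change was -0.03 (-0.27 without ∆mut 2), with none at an unadjusted p under 0.05. The log2 fold change was -0.56 (SE 0.47) for Serpinh1, -0.21 (SE 0.49) for P4ha1, a prolyl hydroxylase subunit, and -0.51 (SE 0.25) for Ppib, a prolyl isomerase. Of the 14 genes of processing and cross-linking 10 were higher and 4 lower, with a median of 0.73 (without ∆mut 2, 6 and 8, median -0.26). Pcolce2, an enhancer of procollagen cleavage, had 0.386, 1.07 and 0.753 CPM in the controls. In ∆mut 1 to 6 it had 116, 65.0, 1.27, 0.502, 0.310 and 138 CPM. It was thus high in 3 of the 6 and within or near the control range in the rest, with a log2 fold change of 6.17 (SE 2.16). The log2 fold change was 0.36 (SE 0.84) for Lox, which starts the cross-links, and 1.46 (SE 0.89) for Bmp1, which trims procollagen.

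Of the 16 fibril partners 12 were higher and 4 lower, with a median of 0.76. This split turned without ∆mut 2, in which 11 of the 16 were highest: 4 were then higher and 12 lower, with a median of -0.44, and voom gave 7 higher and 9 lower. Tnc, a glycoprotein of wounds and tumour stroma, had 44.9 to 109 CPM in the controls and 111 to 1009 CPM in the others, without overlap, and a log2 fold change of 2.51 (SE 0.73, edgeR FDR = 0.677). Fmod, a proteoglycan that binds fibrils, had 45.5 to 73.6 CPM in the controls and 2.97 to 29.8 CPM in the others, also without overlap, and a log2 fold change of -2.29 (SE 0.62, edgeR FDR = 0.677). Of the 9 tested receptors 5 were higher and 4 lower, with a median of 0.17 (0.03 without ∆mut 2). Itga1, a collagen-binding integrin, had 48.6 to 60.8 CPM in the controls and 15.4 to 43.8 CPM in the others, without overlap, and a log2 fold change of -0.84 (SE 0.37). Mia2, from the list of chain modification and folding, had 66.0 to 73.1 and 79.1 to 129 CPM, also without overlap (log2 fold change 0.47, SE 0.24). Of all genes 1.47% were higher and 1.59% lower without overlap. The kinases Ddr1 and Ddr2, which collagen activates, had log2 fold changes of 0.32 (SE 0.62) and -0.07 (SE 0.69).

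Of the 17 proteases and inhibitors 13 were higher and 4 lower, with a median of 0.5 (without ∆mut 2, 8 and 9, median -0.24). Mmp14, a membrane-bound collagenase, and Mmp13 had log2 fold changes of 0.36 (SE 0.46) and 1.06 (SE 0.87). Mmp16 had a log2 fold change of -3.67 (SE 1.19), from a level of 294 CPM in control 2, and it was 0.61 without that tumour. Of the 15 other basement membrane proteins 3 were higher and 12 lower, with a median of -0.58 (without ∆mut 2, 5 and 10, median -0.65). Lamc1, a chain of most laminins, had 584 to 1169 CPM in the controls and 294 to 719 CPM in the others, a log2 fold change of -1.18 (SE 0.37). Lamb1 had 334 to 420 and 77.1 to 376 CPM, a log2 fold change of -0.68 (SE 0.42). Of the 14 genes of the TGF-beta signal, which drives collagen synthesis in fibroblasts, 12 were higher and 2 lower, with a median of 0.77 (the same split without ∆mut 2, median 0.93). Voom gave 10 higher and 4 lower, with a median of 0.61. Of all 19606 genes tested 10902 were higher by edgeR. Tgfb3, a ligand, had 16.5 to 23.7 CPM in the controls and 17.4 to 114 CPM in the others (log2 fold change 1.61, SE 0.58). Tgfbr3, a co-receptor, had 220 to 360 and 56.9 to 313 CPM (log2 fold change -1.13, SE 0.49).

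The samples with the same number in their titles, ∆mut 4 and ∆mut 5, were compared directly. The level differed over 2-fold for 28 of the 43 tested members (65.1%), against 31.3% of all tested genes. Of the members, 24 were higher in ∆mut 5 (55.8%, against 16.0% of all genes) and 4 in ∆mut 4 (9.3%, against 15.3%). Col4a1 was 4.2 times, Col4a2 4.3 times, Col9a2 9.78 times and Col23a1 46.3 times as high in ∆mut 5. With no replicate of either sample these ratios have no test.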

How the data were processed

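Libraries of total RNA from 9 tumours kept strand, per the labels' protocols. The table of raw counts that the authors deposited was used unchanged. Per the submitters' processing notes STAR 2.6.0b, DESeq2 and GRCm38 were used, in roles not stated; the counter, its use of strand and the annotation are not given in the sources used. Symbols were found for 49326 of 49585 identifiers in GENCODE release M21, which also gave exon lengths. Counts were scaled by library size and TMM, and genes kept by filterByExpr (minimum count of 10) entered edgeR 4.0.16 under R 4.3.3 (2-sided quasi-likelihood test, no covariate, Benjamini-Hochberg over all 19606 genes). SE is the size of the log2 fold change divided by the square root of F. DESeq2 1.42.0 and voom in limma 3.58.1 were alternatives, as were other scalings, filters, a robust fit, the sum of the same-numbered samples and each tumour left out. Relations with 5 other markers were added after the values were seen. The fits were tested on simulated data. Relations used all orders of the 9 tumours, where resampling had been planned, since full enumeration was possible. No 2 libraries agreed within sampling noise (lowest chi-square per gene 119). The members, the role and companion lists and the tests were chosen with earlier results of these data known. Named members were a list of fixed chains, the 4 with the smallest p in each direction, those without overlap, those with over 50% of their CPM in 1 tumour and the 5 highest per kilobase. Shares and counts carry counting error only, which is small at these totals beside the spread between tumours.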

Additional observations from a re-analysis of the deposited data

Results flagged for a closer look

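In the AAV-∆mut-p53 group 50 values (the CPM of all 44 members and the 6 chain ratios) were screened for a tumour far from the other 5 by Dixon's criterion on the log2 scale, and 9 were marked, where chance marks about 5% of groups. The 3 controls were too few to screen. Values are rounded to 3 digits. ∆mut 2 stood alone in Col6a2 (3280 CPM), Col6a5 (3200 CPM) and Col6a6 (915 CPM). ∆mut 5 stood alone in Col15a1 (175.0 CPM), Col8a2 (23.8 CPM) and Col13a1 (15.2 CPM), each of which lay within or just above the control range. ∆mut 3 stood alone in Col10a1 (33.7 CPM), ∆mut 4 was alone at the low end of Col4a4 (0.837 CPM), and ∆mut 6 had the highest ratio of Col6a1 to Col6a2 per kilobase (5.04).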

How the results depend on the processing

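No paired analysis was possible because replicate numbers follow the order of the samples and tie no control to a treated tumour. With 3 controls, a wide spread and 1 tumour rich in muscle markers, these data limit what can be called. The part of depth in this was not tested, and members near 1 CPM, such as Col19a1, Col22a1 and Col4a3, had few counts. No collagen gene passed the FDR threshold in edgeR under any scaling, filter, robust fit or left-out tumour, nor in voom. DESeq2 called 1 collagen gene (Col2a1) and 105 genes in all, and also Pcolce2 and Tnc; 9 members with no DESeq2 p were left out of its counts. Of 1170 values of 66 named genes under 18 alternatives, 1095 kept their direction and side of the threshold and 72 changed sign, in 30 genes; the cause was not tested.

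With no filter on low counts 2443 genes had an unadjusted p under 0.05, among more genes tested. Voom gave 19 companion genes such a p, where 10.4% of all genes had one by voom. Leaving out 1 tumour at a time gave 874 (without control 2) to 2009 genes in all, 3 (without control 1) to 9 collagen genes, and 5 (without control 1 or control 2) to 16 companion genes (without ∆mut 2 or ∆mut 5). Voom turned the log2 fold change of 16 collagen genes and of Lox: Col1a2 -0.03, Col3a1 -0.69, Col4a4 -0.004, Col4a5 -0.05, Col5a1 -0.39, Col5a2 -0.17, Col5a3 -0.10, Col6a1 -0.16, Col6a2 -0.30, Col6a3 -0.31, Col6a4 -0.22, Col6a6 -1.24, Col20a1 -0.04, Col23a1 -1.21, Col25a1 -0.07, Col28a1 -0.18 and Lox -0.27. With the same-numbered samples ∆mut 4 and ∆mut 5 summed, Col23a1 was -0.36 and Ddr2 0.05, and r of Col10a1 and Mmp13 was -0.04. With a minimum count of 50, Ddr2 was 0.002.

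The range with 1 tumour left out crossed 0 for the following log2 fold changes. Among fibrillar chains it ran from -0.96 to 1.32 for Col1a1, -0.62 to 1.77 for Col1a2, -1.37 to 1.44 for Col3a1, -0.58 to 1.04 for Col5a1, -0.39 to 1.01 for Col5a2 and -0.19 to 1.92 for Col5a3. For type IV chains it was -1.36 to 0.1 for Col4a1, -1.3 to 0.03 for Col4a2, -0.63 to 0.68 for Col4a5 and -0.4 to 2.8 for Col4a6. For type VI chains it was -0.42 to 3.02 for Col6a1, -0.84 to 2.88 for Col6a2, -0.69 to 1.07 for Col6a3, -2.63 to 10.53 for Col6a5 and -2.53 to 5.08 for Col6a6. For the rest it was -1.06 to 0.17 for Col8a1, -1.97 to 1.72 for Col9a1, -0.94 to 0.4 for Col18a1, -2.08 to 0.77 for Col23a1, -0.17 to 2.82 for Col25a1, -2.17 to 0.14 for Col26a1 and -0.67 to 0.76 for Col28a1. Among companions it was -1.01 to 0.11 for Ddr2, -0.06 to 3.61 for Itga11, -0.66 to 1.15 for Lox, -4.25 to 0.61 for Mmp16 and -0.53 to 0.23 for P4ha1. The low end of Col1a2, Col3a1, Col5a1 to Col5a3, Col6a1 to Col6a3, Col6a5, Col6a6, Lox and Itga11 came without ∆mut 2.

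The log2 difference of the ratio Col4a1/Col4a2 ran from -0.25 to 0.07 and that of Col6a1/Col6a2 from -0.03 to 0.3 with 1 tumour left out. In the same way r ran from -0.21 to 0.25 for Col10a1 and Mmp13, -0.37 to 0.25 for Col2a1 and Acan, and -0.42 to 0.18 for Col7a1 and Krt14. Without the 2 tumours farthest from the median r was 0.83 for Col1a1 and Col3a1 (exact permutation, adjusted p = 0.053), -0.15 for Col1a1 and Serpinh1, 0.15 for Col7a1 and Krt14 and -0.12 for Col10a1 and Mmp13. With another marker, chosen after the values were seen, r was 0.77 for Col7a1 and 0.8 for Col17a1 with Trp63, 0.69 for Col7a1 with Krt5, and 0.83 for Col1a1 with the summed fibroblast markers.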
